A study of Mus musculus with 4 samples.

Results

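Accessibility around 10 genes of the transforming growth factor beta (TGF-β) pathway was followed in ATAC-seq peaks of mouse bone marrow-derived macrophages (BMDMs), namely the ligand Tgfb1, the receptors Tgfbr1 and Tgfbr2, the SMAD genes Smad1, Smad2, Smad3, Smad4, Smad6 and Smad7, and the corepressor gene Skil. ATAC-seq maps open chromatin through the insertion of sequencing adapters by the transposase Tn5. Peaks sharing 1 bp or more across the 4 libraries were joined into 60710 regions, and the 87 regions whose highest peak carried the name of 1 of the 10 genes were kept. The name is that of the gene with the nearest annotated start site, so it does not show which gene a region acts on. All libraries came from wild-type mice, aged 8 to 12 weeks per the labels, whose bone marrow cells had been grown for 6 days with L929 supernatant, which supplies the growth factor M-CSF. They formed a control group without IL-4 (n = 2) and a group kept for 1 h in 20 ng/ml of IL-4 (n = 2). The study asked whether chromatin accessibility differs after IL-4 stimulation, and the 10 genes were compared between these groups. The 2 libraries of a group are biological replicates per the study's methods, which do not say whether a replicate was a separate mouse. The p-values thus refer to a spread between libraries, which was in part shared over all regions tested.

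TGF-β is released in a latent form, and once active it brings together a type II receptor and a type I receptor, both of which are serine/threonine kinases. The type I receptor phosphorylates receptor-regulated SMAD proteins, which join the common partner SMAD4, enter the nucleus and bind DNA with other transcription factors. Inhibitory SMAD proteins and the corepressors of the SKI family restrain the signal. In macrophages TGF-β is known for dampening inflammatory responses and for shaping tissue-resident identity. IL-4 acts through the transcription factor STAT6, in whose canonical sites TTC and GAA stand 4 bases apart. The study reported that the canonical motif was under-represented at STAT6 peaks with reduced RNA polymerase II after IL-4. A region without a match may therefore still be bound by STAT6.

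A set of 6 stretches of accessible DNA, on the plus strand of mm10 and at most 300 bases each, is shown first. These are examples, and other regions named below are not printed. Capitals mark matches to the STAT6 spacing, to the 3-base spacing of other STAT proteins and to the AP-1 letters TGANTCA, searched on both strands. The first lies in intron 1 of Tgfbr2 (chr9:116145311-116145610), the next pair lies upstream of Skil (chr3:31061237-31061536 and chr3:31084062-31084361), the following pair is 2 neighbouring regions within Smad1 (chr8:79362577-79362702 and chr8:79362316-79362494) and the last lies upstream of Tgfbr1 (chr4:47347180-47347348).
Tgfbr2, 30 kb downstream of the start: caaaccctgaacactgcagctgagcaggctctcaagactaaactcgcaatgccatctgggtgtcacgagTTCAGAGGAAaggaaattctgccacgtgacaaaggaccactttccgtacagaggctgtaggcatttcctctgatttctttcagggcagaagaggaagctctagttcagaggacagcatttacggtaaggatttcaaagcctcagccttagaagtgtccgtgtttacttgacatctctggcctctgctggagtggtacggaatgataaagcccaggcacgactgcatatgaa
Skil, 33.7 kb upstream: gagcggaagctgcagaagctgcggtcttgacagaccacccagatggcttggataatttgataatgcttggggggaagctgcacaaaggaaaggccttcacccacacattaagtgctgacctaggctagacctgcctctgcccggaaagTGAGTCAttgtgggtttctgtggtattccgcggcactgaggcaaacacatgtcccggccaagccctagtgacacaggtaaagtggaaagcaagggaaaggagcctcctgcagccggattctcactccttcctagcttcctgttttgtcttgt
Skil, 10.9 kb upstream: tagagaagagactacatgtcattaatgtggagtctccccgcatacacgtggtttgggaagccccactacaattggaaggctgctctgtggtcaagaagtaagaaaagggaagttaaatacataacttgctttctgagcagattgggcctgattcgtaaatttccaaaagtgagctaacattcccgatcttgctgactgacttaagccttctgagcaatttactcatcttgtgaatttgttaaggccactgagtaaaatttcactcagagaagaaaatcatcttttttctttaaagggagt
Smad1, 36.8 kb downstream: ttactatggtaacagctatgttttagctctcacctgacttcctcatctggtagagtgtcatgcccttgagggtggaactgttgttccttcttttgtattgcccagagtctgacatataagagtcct
Smad1, 37.1 kb downstream: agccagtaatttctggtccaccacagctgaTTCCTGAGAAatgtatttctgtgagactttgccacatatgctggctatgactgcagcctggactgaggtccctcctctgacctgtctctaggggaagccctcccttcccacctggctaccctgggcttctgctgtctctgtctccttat
Tgfbr1, 6.1 kb upstream: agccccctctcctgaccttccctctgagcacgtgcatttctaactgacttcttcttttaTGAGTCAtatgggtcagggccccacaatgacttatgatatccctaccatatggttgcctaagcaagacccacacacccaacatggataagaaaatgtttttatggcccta

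The Tgfbr2 stretch holds the match TTCAGAGGAA to the STAT6 spacing, whose last 6 letters GAGGAA are also the core letters bound by PU.1, a lineage factor of macrophages. The Skil stretch 33.7 kb upstream and the Tgfbr1 stretch each hold the AP-1 letters TGAGTCA. The Smad1 stretch 37.1 kb downstream holds TTCCTGAGAA. Its neighbour and the Skil stretch 10.9 kb upstream hold no STAT or AP-1 match, though the neighbour holds 1 PU.1 core.

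A second sequence comes from the promoter of Smad6 in RefSeq (GRCm38.p6, the assembly behind mm10) and is written 5′ to 3′ along the gene, which lies on the minus strand. It covers chr9:64022056-64022309. Its capitals mark the SMAD palindrome GTCTAGAC, which begins 4 bases before the start site in the RefSeq promoter table but lies 22 bp inside the gene as its annotated 5′ end is placed (64022085).
Smad6 promoter: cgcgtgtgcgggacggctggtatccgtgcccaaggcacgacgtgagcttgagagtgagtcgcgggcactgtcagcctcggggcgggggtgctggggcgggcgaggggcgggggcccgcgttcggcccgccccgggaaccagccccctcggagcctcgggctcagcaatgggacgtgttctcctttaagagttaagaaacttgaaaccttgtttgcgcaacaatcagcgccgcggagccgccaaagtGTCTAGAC
The palindrome occurred in 142 of the 60710 regions (0.234%) and in 29 of 11416 promoter regions (0.254%), and in 2 member regions, at the starts of Smad6 and of Smad7, the other inhibitory SMAD gene. A match describes letters only, since no binding was measured in these libraries.

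The height of a peak is its deposited score, read as −log10 of the MACS2 q-value. It measures the evidence for a peak and is not a read count, so it grows with sequencing depth, which is unknown here. Over the regions found in all 4 libraries, the median height was 12.52 and 11.01 in control replicates 1 and 2 and 11.14 and 8.86 in IL-4 replicates 1 and 2. IL-4 replicate 2 was thus the lowest at the median, and heights below are given as deposited, in that order, before the normalised change. Of 7 macrophage marker genes, 6 had a peak within 1 kb of a start site in every library, with summed heights of 75.81 and 66.5 in the control and 62.14 and 55.46 in the IL-4 libraries. The remaining marker, the M-CSF receptor gene Csf1r, had no start-site peak in any library. No start-site peak was found for 3 T cell and 3 B cell markers. Single neutrophil and endothelial markers had one in every library (1 of 3 and 1 of 2), and 1 of 3 stromal markers had one in control replicate 1.

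Of the 87 member regions, 42 (48.3%) had a peak in every library, compared with 41.9% of all regions. Control replicate 1 held 70 of them, control replicate 2 held 57, IL-4 replicate 1 held 57 and IL-4 replicate 2 held 58. Control replicate 1 also had the most peaks of all kinds, 45250 against 39462 to 41978 in the other libraries. The 25 member regions found in a single library came from control replicate 1 in 13 cases, and that library held 31.7% of all single-library regions. Tgfbr2 had 22 regions and Tgfbr1 13, Smad1 had 12, Smad3 11 and Smad7 10, whereas Skil had 8, Smad2 5, Smad6 3, Smad4 2 and Tgfb1 1. Introns held 41 of the 87 regions, intergenic DNA 36 and promoters 10 (11.5%, against 18.8% of all regions). Regions were 211 bp long at the median with 50.3% GC, close to the 209 bp and 51% of all regions. A total of 68 lay within 50 kb of the start site and 9 beyond 100 kb.

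**Figure D1:**
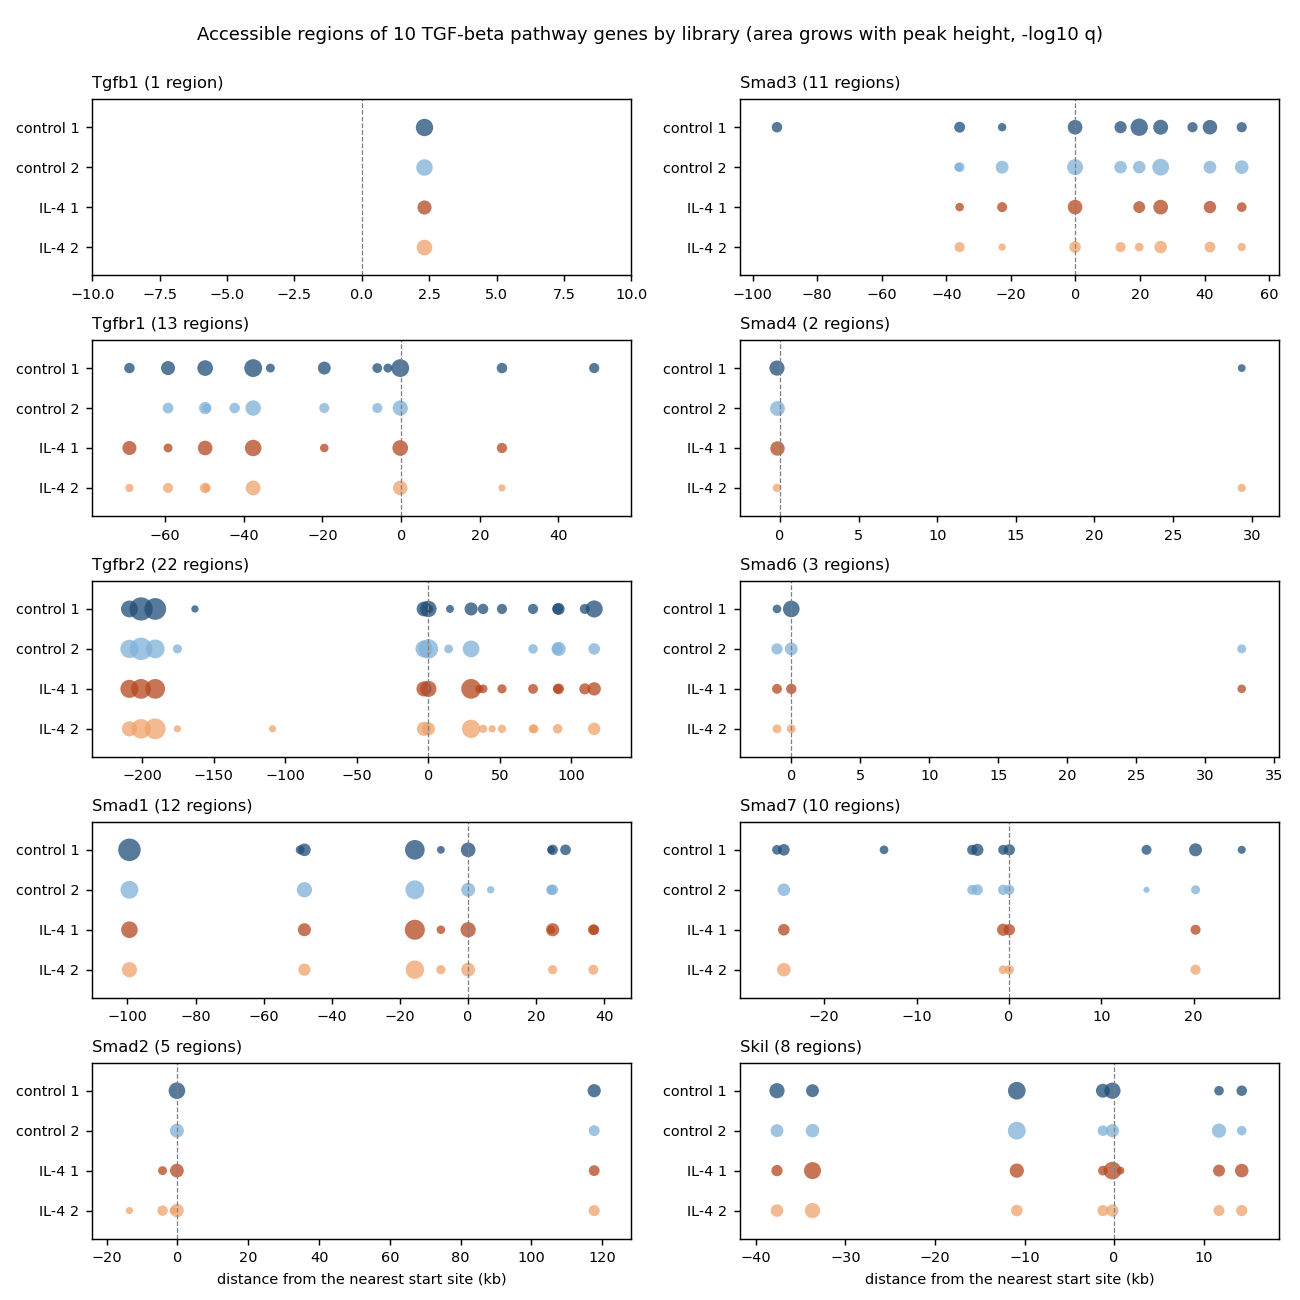
Peaks of the 10 genes in each library, by distance from the nearest start site in kb (positive is downstream), with circle area growing with peak height (−log10 q) and 1 row per library. The panel of Tgfbr2 holds 22 regions, with a group of high peaks 191.0 to 209.0 kb upstream. The panel of Smad7 shows 10 regions in control replicate 1 and 4 in each IL-4 library. Over all genes these libraries held 43829 regions in control replicate 1 and 40375 and 37730 in IL-4 replicates 1 and 2.

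No member region passed the test after IL-4. Heights of the 25442 regions found in all 4 libraries were quantile-normalised on the log2 scale and compared with limma, which at an adjusted p of 0.05 called 4 regions higher (0.0157%) and 2 lower (0.00786%). Among the 42 member regions it called 0 higher and 0 lower, with 0.317 as the lowest limma adjusted p. The fit draws the spread of a region towards that of regions of similar height. The SEs, intervals and p-values below therefore rest in part on other regions. At the start of Smad1, for example, the SDs were 0.016 in the control and 0.004 in the IL-4 group, and the SE was 0.355. At an unadjusted p under 0.05, 6 of 42 member regions (14.3%) were counted, 2 with higher and 4 with lower heights after IL-4, beside 8.28% of all regions tested. Changes in the members ran from −1.20 to 0.96 on the log2 scale with a median of −0.075, whereas the median over all regions was −0.0006. They had an SD of 0.466 against 0.504 over all regions, and 25 of 42 (59.5%) were negative against 50.1%.

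After normalisation, the IL-4 libraries both lay above both control libraries in 5 of 42 member regions (11.9%, beside 19.2% of all regions) and both below in 7 (16.7%, beside 18.6%). Presence and absence gave a similar picture. A region with a peak in both IL-4 libraries and in neither control library is called IL-4-only, and 2 of 87 member regions (2.3%) were of this kind, beside 2.53% of all regions. The reverse, control-only, held for 4 of 87 (4.6%), beside 4.33%. These shares were near those of all regions.

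**Figure D2:**
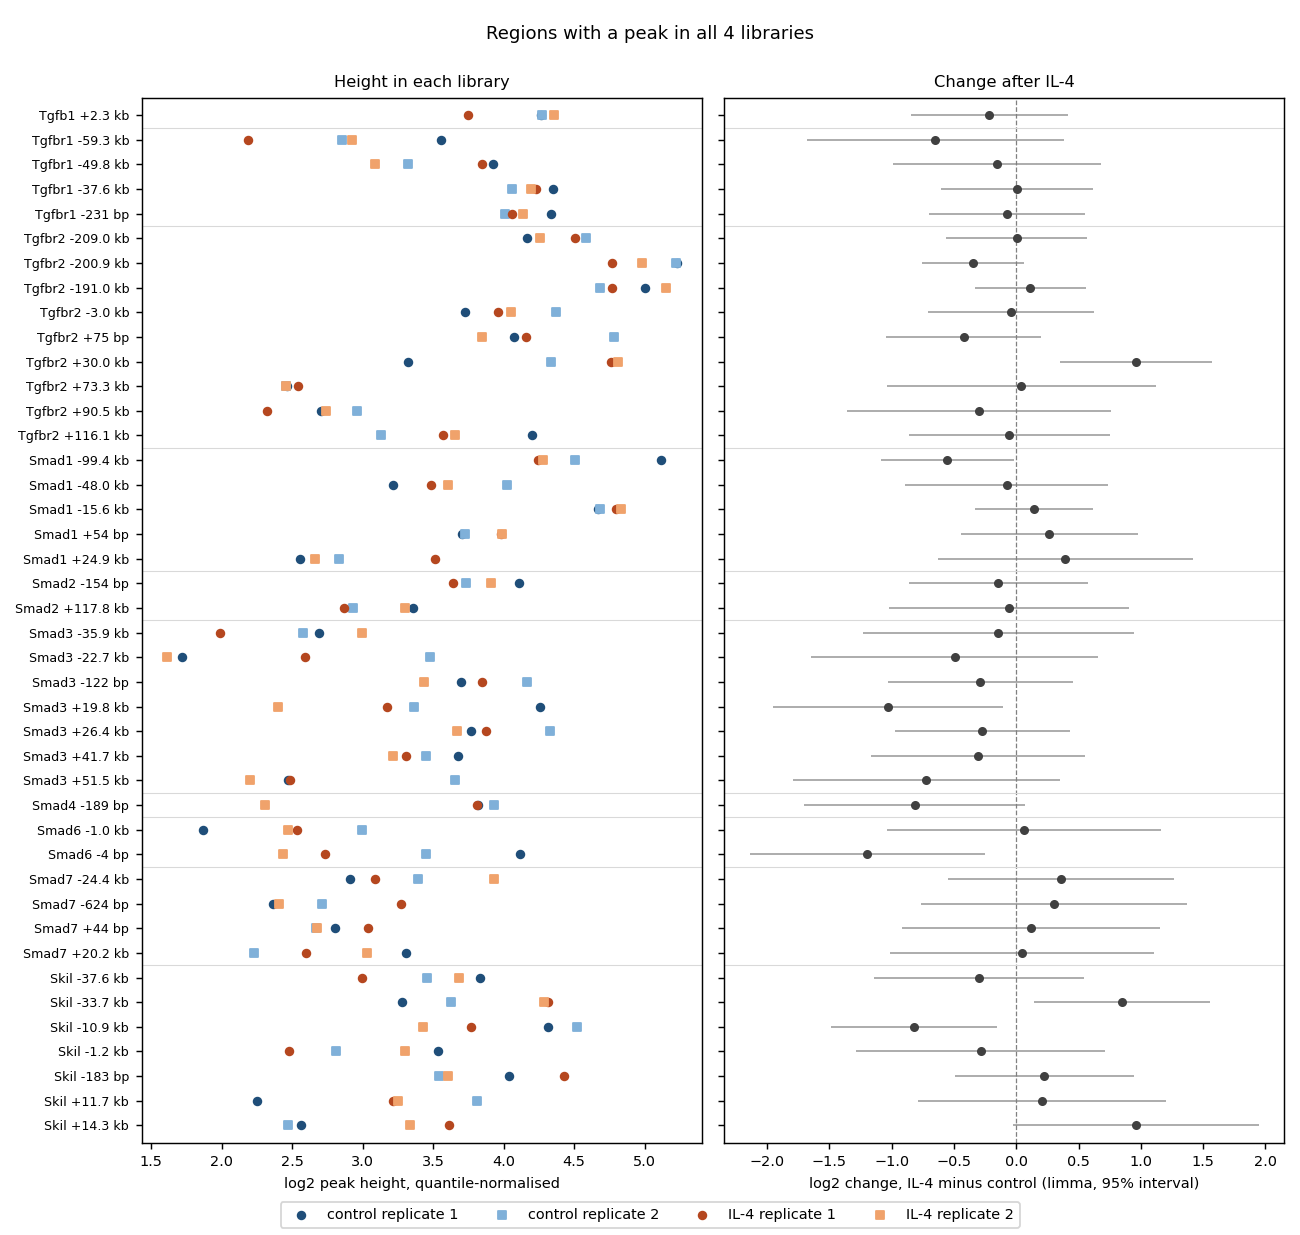
Left, log2 quantile-normalised peak height in each of the 4 libraries for the 42 regions found in all of them; right, the log2 change (IL-4 minus control) with its 95% interval from limma, whose dashed line is 0. The intervals of 6 of 42 regions leave out 0, and that of Tgfbr2 30 kb downstream, at 0.96, is the highest of them.

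The start sites themselves were open in every library for 9 of the 10 genes, with 2 regions at Smad7 and none at Tgfb1. Mean normalised log2 heights over the 4 libraries were 4.21 ± 0.40 (SD, n = 4) for Tgfbr2, 4.13 ± 0.15 for Tgfbr1, 3.90 ± 0.41 for Skil, 3.85 ± 0.15 for Smad1 and 3.85 ± 0.21 for Smad2. Below these came Smad3 at 3.79 ± 0.30, Smad4 at 3.47 ± 0.77, Smad6 at 3.18 ± 0.75 and the regions of Smad7 at 2.80 ± 0.17 and 2.69 ± 0.42. These means and SDs pool both groups, so an SD also holds any difference between the groups. In this pooled order the receptors came first and the inhibitory SMAD genes last. No neighbouring pair in it differed by more than the larger of their SDs. The place of Smad6 depended on the group, with means of 3.78 in the control and 2.58 in the IL-4 libraries. Those of Smad1 were 3.72 and 3.98. The height is a peak's maximum evidence and not a sum over its length. The median change of the 10 start-site regions was −0.110, with 6 negative, and that of all promoter regions 0.039. The other 32 regions had a median of −0.067, with 19 negative, against −0.025 for all regions outside promoters.

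**Figure D3:**
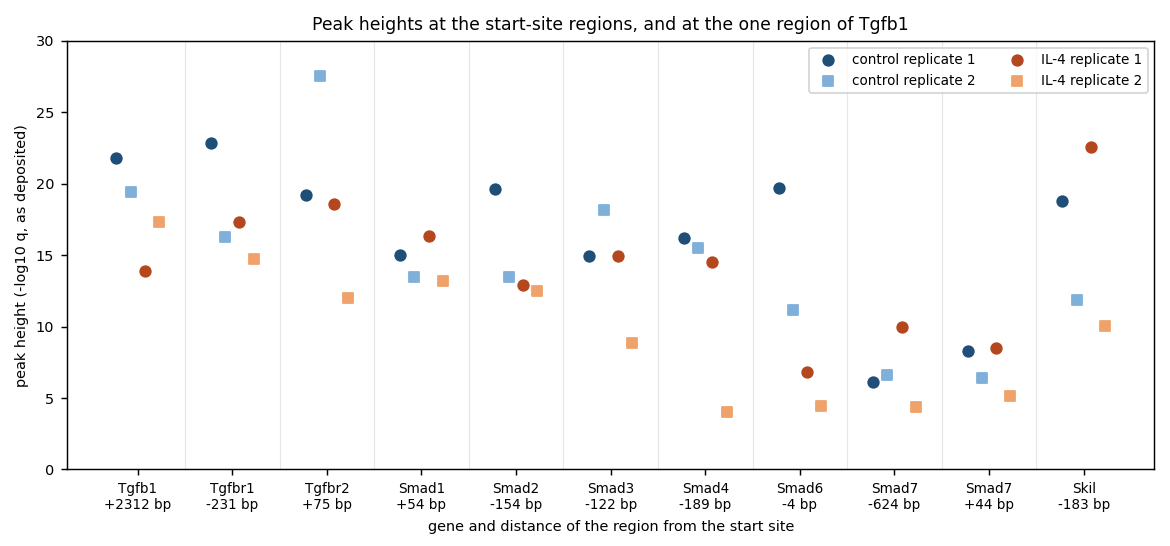
Deposited peak height (−log10 q, linear axis from 0) at each start-site region and at the region of Tgfb1, with 1 point per library and the distance from the start in bp. At Smad6 both control points (19.73 and 11.15) lie above both IL-4 points (6.83 and 4.47), and at Smad4 the point of IL-4 replicate 2 (4.02) lies apart from the other libraries.

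Tgfb1 encodes the ligand TGF-β1. Its single region lay in intron 1 of 6 (chr7:25689033-25689537) and had heights of 21.80 and 19.41 in the control and 13.87 and 17.30 in the IL-4 libraries. The deposited heights of the groups did not overlap, but after normalisation they did, and the change was −0.22 ± 0.31 (SE, n = 2 per group). No region lay within 2 kb of the start of Tgfb1. The intronic region began 2031 bp downstream of the start, and the nearest region upstream, 3179 bp away, carried the name of B9d2.

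Tgfbr1 encodes the type I receptor that phosphorylates SMAD2 and SMAD3. Its promoter region, 231 bp upstream of the start, had heights of 22.86 and 16.26 in the control and 17.33 and 14.73 in the IL-4 libraries. The groups overlapped, and the change was −0.08. A region 37.6 kb upstream was as high, with 23.02 and 16.81 in the control and 19.51 and 15.34 in the IL-4 libraries, and a change of 0.01. It held both a match to the STAT6 spacing, TTCATGAGAA, and the SMAD-binding CAGA box AGCCAGACA. Its change was among the smallest in size over the regions of the 10 genes. Farther upstream, 5 regions named Tgfbr1 lay in introns of Col15a1, a collagen gene next to it. One of them, 59.3 kb upstream, had heights of 13.63 and 7.33 in the control and 4.70 and 6.21 in the IL-4 libraries, with a change of −0.65 ± 0.52 (SE), or −0.28 without IL-4 replicate 1 and −1.01 without control replicate 2. Its groups overlapped after normalisation.

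A region 6.1 kb upstream of Tgfbr1, the one printed above with TGAGTCA, was control-only, with heights of 5.91 and 6.21 and no peak in either IL-4 library. These are low peaks. The median of the highest height was 5.05 over the 45 member regions missing from at least 1 library and 16.9 over the 42 found in all. The highest peak of a member region missing from a library reached 14.13, at Tgfbr2 91.2 kb downstream in control replicate 2.

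Tgfbr2 encodes the type II receptor, which binds the ligand first and activates the type I receptor. The region 30 kb downstream of its start, in intron 1 of 6 (chr9:116145224-116145697), had heights of 11.65 and 20.30 in the control and 28.38 and 24.35 in the IL-4 libraries. Both IL-4 libraries lay above both control libraries here. The normalised change was 0.96 ± 0.30 (SE), with a 95% interval of 0.35 to 1.57 and a limma adjusted p of 0.317. The size rested on control replicate 1, since the change was 0.47 without it and 1.47 without control replicate 2. It is the region whose sequence carries TTCAGAGGAA, at chr9:116145380-116145389.

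The highest member peaks also belonged to Tgfbr2 and lay far upstream of its start. The region 200.9 kb upstream (chr9:116376000-116376533) had heights of 39.81 and 37.13 in the control and 28.51 and 27.82 in the IL-4 libraries, which placed its normalised mean at percentile 98.3 of the regions found in all libraries. The IL-4 libraries were lower without overlap, with a change of −0.35 ± 0.20 (SE) and a limma adjusted p of 0.678. Its neighbour 191.0 kb upstream, with 34.87 and 25.80 in the control and 28.44 and 31.49 in the IL-4 libraries, had overlapping groups and a change of 0.11. A further neighbour 209.0 kb upstream stood at 20.39 and 24.12 in the control and 23.71 and 16.09 in the IL-4 libraries, with a change of 0.00. The regions 200.9 and 209.0 kb upstream held matches to the STAT6 spacing, TTCTTGTGAA and TTCTTAGGAA, as did the intronic region, so regions of 1 gene with the same kind of match had changes of −0.35, 0.00 and 0.96.

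At the start of Tgfbr2, heights were 19.18 and 27.51 in the control and 18.61 and 11.97 in the IL-4 libraries, and 3.0 kb upstream they were 15.26 and 20.87 against 16.13 and 13.84. The changes were −0.42 and −0.04, and the groups overlapped at both after normalisation, though at the start the deposited heights did not. The mean change over the 9 regions of Tgfbr2 found in all libraries was −0.006 with an SD of 0.408 among regions. The other 13 regions of the gene lacked a peak in at least 1 library, and none was IL-4-only or control-only.

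Smad1 encodes a receptor-regulated SMAD that serves bone morphogenetic protein (BMP) receptors in the first place. Its highest peaks lay upstream. The region 99.4 kb upstream (chr8:79498658-79499066) had heights of 37.38 and 22.87 in the control and 19.68 and 16.35 in the IL-4 libraries. The IL-4 libraries were lower without overlap, with a change of −0.55 ± 0.27 (SE), a 95% interval of −1.09 to −0.02 and a limma adjusted p of 0.584. The size rested on the control libraries, at −0.26 without control replicate 1 and −0.87 without control replicate 2. By contrast, the region 15.6 kb upstream had nearly equal heights, with 28.12 and 25.71 in the control and 29.26 and 24.77 in the IL-4 libraries and a change of 0.14. The promoter region, with 15 and 13.45 in the control and 16.34 and 13.20 in the IL-4 libraries, had a change of 0.27. At both, the IL-4 libraries lay above the control libraries after normalisation but not in the deposited heights.

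Within Smad1, an IL-4-only region lay 36.8 kb downstream of the start, with heights of 7.5 and 6.17 in the IL-4 libraries and no control peak. The region beside it, 37.1 kb downstream and printed above with TTCCTGAGAA, had a peak of 6.24 in IL-4 replicate 1 alone. Both neighbours therefore had peaks after IL-4 only, at heights under the median of their libraries (7.69 and 6.41), and no level can be given for the control libraries, where no peak was listed. The mean change over the 5 regions of Smad1 found in all libraries was 0.035 with an SD of 0.372.

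Smad2 encodes a receptor-regulated SMAD of the TGF-β and activin branch. At its start heights were 19.64 and 13.50 in the control and 12.94 and 12.48 in the IL-4 libraries, with a change of −0.14 and overlapping groups after normalisation. A region 117.8 kb downstream had a change of −0.06. The other IL-4-only member region lay 4.2 kb upstream of Smad2, with low peaks of 4.61 and 6.98 in the IL-4 libraries, and it held a match to the STAT6 spacing.

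Smad3 encodes the receptor-regulated SMAD that binds DNA directly downstream of the TGF-β receptors. All 7 of its regions found in every library had negative changes, with a mean of −0.465 and an SD of 0.311 among regions. The mean was −0.288 without control replicate 2, where the region 26.4 kb downstream stood at 0.003, and −0.674 without control replicate 1. The largest was in intron 1 of 8, 19.8 kb downstream (chr9:63738127-63738356), with heights of 21.66 and 10.50 in the control and 9.33 and 4.37 in the IL-4 libraries. Both IL-4 libraries lay below both control libraries, and the change was −1.03 ± 0.46 (SE), with a 95% interval of −1.95 to −0.10 and a limma adjusted p of 0.553. It was −0.60 without control replicate 1 and −0.63 without IL-4 replicate 2. In the same intron, the region 41.7 kb downstream was lower without overlap too, at 14.78 and 11.18 in the control and 10.29 and 7.56 in the IL-4 libraries, with a change of −0.31. The start-site region had overlapping groups, with 14.94 and 18.13 in the control and 14.94 and 8.86 in the IL-4 libraries, and a change of −0.29. The highest region of Smad3 on average, 26.4 kb downstream, had 15.69 and 20.21 in the control and 15.18 and 10.49 in the IL-4 libraries. Its groups overlapped after normalisation but not in the deposited heights, and the change was −0.27. Regions of 1 gene come from the same libraries and are not replicates.

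The gene name missed 3 further regions inside the body of Smad3 that carried the name of the neighbour Aagab. The highest of them (chr9:63678197-63678440) had heights of 16.51 and 10.97 in the control and 8.23 and 6.47 in the IL-4 libraries. Its change of −0.63 ± 0.45 (SE, limma adjusted p = 0.760) had the same sign as those of the regions named Smad3.

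Smad4 encodes the common partner of the receptor-regulated SMAD proteins. It had a single region in all libraries, at its start, with heights of 16.18 and 15.49 in the control and 14.49 and 4.02 in the IL-4 libraries. The groups did not overlap, but the low value was that of 1 library. The change was −0.82 ± 0.44 (SE, limma adjusted p = 0.643), but −0.07 without IL-4 replicate 2 and −1.58 without IL-4 replicate 1. A second region, 29.4 kb downstream, had peaks of 3.17 in control replicate 1 and 3.73 in IL-4 replicate 2.

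Smad6 encodes an inhibitory SMAD that acts mainly on BMP signals. Its start-site region (chr9:64021898-64022332), which holds the palindrome printed above, had heights of 19.73 and 11.15 in the control and 6.83 and 4.47 in the IL-4 libraries. This was the most negative change of the 42 regions, −1.20 ± 0.47 (SE), with a 95% interval of −2.14 to −0.25 and a limma adjusted p of 0.455. The groups did not overlap, and the change stayed between −1.54 and −0.89 when each library in turn was left out. A second region of Smad6 1.0 kb upstream, at 4.27 and 8.12 in the control and 5.95 and 4.57 in the IL-4 libraries, had a change of 0.07, so the regions at the 5′ end of Smad6 differed in sign.

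Smad7 encodes the inhibitory SMAD of the TGF-β branch, which blocks the type I receptor. Its start-site regions had the lowest means over the 4 libraries of the 9 genes with any. The region 44 bp downstream of the start, the other one with the palindrome, had heights of 8.26 and 6.39 in the control and 8.51 and 5.17 in the IL-4 libraries, and the region 624 bp upstream had 6.11 and 6.62 against 9.98 and 4.40. Their changes were 0.12 and 0.30 with overlapping groups, in contrast to the negative value at Smad6. The highest region of Smad7, 24.4 kb upstream, had 8.84 and 10.71 in the control and 8.84 and 12.70 in the IL-4 libraries. Its change was 0.36, and it held the other CAGA box of the member regions and a match to the STAT6 spacing.

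Smad7 also had 3 of the 4 control-only member regions. The region 3.4 kb upstream had heights of 10.05 and 7.81 in the control libraries, the region 4.0 kb upstream 6.47 and 6.13, and the region 14.9 kb downstream 6.09 and 1.49, the latter under a score of 2. Neither IL-4 library had a peak in any of the 3. The signs of the 4 regions of Smad7 found in all libraries, by contrast, were positive, with a mean change of 0.207 and an SD of 0.148. Over the gene, control replicate 1 had 10 regions, control replicate 2 had 7 and the IL-4 libraries had 4 each. Of the 10, 3 had a peak in control replicate 1 alone. Over all genes the libraries held 43829, 40483, 40375 and 37730 regions, in the order used for heights.

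Skil encodes SnoN, a corepressor that binds SMAD proteins, and its regions differed in sign. The region 33.7 kb upstream (chr3:31061208-31061564) had heights of 11.28 and 12.58 in the control and 20.71 and 16.47 in the IL-4 libraries. Both IL-4 libraries were higher, with a change of 0.85 ± 0.35 (SE), a 95% interval of 0.14 to 1.56 and a limma adjusted p of 0.502. The region 10.9 kb upstream (chr3:31083983-31084440) was lower in both IL-4 libraries, at 22.57 and 23.02 in the control and 14.11 and 8.78 in the IL-4 libraries. Its change was −0.82 ± 0.33 (SE), with a 95% interval of −1.49 to −0.15 and a limma adjusted p of 0.478. The intervals of these 2 regions did not overlap. Both regions were named by a rule that used their changes, so this is not a test of a difference between them.

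A further region of Skil, in intron 4 of 8 and 14.3 kb downstream (chr3:31109225-31109409), had heights of 6.93 and 5.54 in the control and 12.64 and 8.22 in the IL-4 libraries. The groups did not overlap, and the change was 0.96 ± 0.49 (SE, limma adjusted p = 0.619) with an interval that included 0. At the start of Skil the libraries spread widely within both groups, with 18.79 and 11.86 in the control and 22.56 and 10.01 in the IL-4 libraries, and the change was 0.23. The mean change over the 7 regions of Skil found in all libraries was 0.119, with an SD of 0.643, the widest among the genes with at least 4 such regions.

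Letters of the STAT6 spacing occurred in 11 of the 87 member regions (12.6%) and in 7.22% of all regions, or in 9.2% against 6.35% when the central 200 bp of each region were searched. The 3-base spacing was found in 2 (2.3% against 6.9%), AP-1 letters TGANTCA in 22 (25.3% against 21.8%) and the PU.1 core GAGGAA in 37 (42.5% against 38.3%). The CAGA box AGCCAGACA was found in 2 member regions and in 0.488% of all regions. Member regions with the STAT6 spacing lay on both sides of 0. The 7 member regions with it and a peak in every library had a median change of 0.004, with 4 positive, whereas over all regions the median was 0.176 with the match and −0.017 without it. With AP-1 letters the 10 member regions had a median of −0.227, and those without them had −0.057. Over all regions the median was −0.078 with AP-1 letters and 0.026 without them.

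A list of 39 other genes of TGF-β and BMP signalling gave the surroundings of the members, and 35 of them had 279 regions. Among the 107 found in all libraries, limma called 0, and 14 (13.1%, beside 8.28% of all regions) had an unadjusted p under 0.05. Their median change was 0.026. The IL-4 libraries were higher without overlap in 31 (29%, beside 19.2% of all regions) and lower in 22 (20.6%, beside 18.6%). Of the 279 regions, 10 were IL-4-only (3.58%, beside 2.53%) and 11 control-only (3.94%, beside 4.33%). By role, the median change was 0.199 over 15 regions of ligand genes, 0.137 over 24 of receptor genes, −0.122 over 25 of genes of latency and activation, −0.107 over 34 of inhibitor genes and 0.095 over 8 of target genes. The only SMAD region of the list found in all libraries stood at −0.191.

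Among the regions of these genes whose groups did not overlap, the 4 with the largest absolute change are named here. The region 115 kb upstream of Thbs1, which encodes the TGF-β activator thrombospondin 1, had heights of 14.79 and 10.72 in the control and 2.8 and 4.93 in the IL-4 libraries, with a change of −1.53 ± 0.53 (SE, limma adjusted p = 0.372). At Ctgf, a classic target of TGF-β, the region 3.5 kb upstream had 10.47 and 10.29 in the control and 20.47 and 18.53 in the IL-4 libraries, with a change of 1.12 ± 0.36 (SE, limma adjusted p = 0.319). That the groups do not overlap at the 4 regions follows from how they were chosen. The region 93.3 kb upstream of the BMP ligand gene Bmp2, at 9.71 and 4.95 in the control and 23.08 and 8.8 in the IL-4 libraries, had a change of 1.27 ± 0.46 (SE, limma adjusted p = 0.405). The promoter region of the activin receptor gene Acvr2a had 6.46 and 6.3 in the control and 12.95 and 10.28 in the IL-4 libraries, with a change of 1.09 ± 0.48 (SE, limma adjusted p = 0.543).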

How the data were processed

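Tool versions in the submitters' processing notes are BWA 0.7.10, SAMtools 0.1.19, HOMER 4.2 and MACS2 2.0.10. The authors aligned reads to mm10, called peaks in each library separately, removed blacklisted regions and annotated peaks with HOMER. The deposited peak score was read as −log10 of the q-value, since the lowest scores were close to −log10 of 0.05. Scores under 2 occurred in 133, 259, 267 and 603 peaks, although the stated cut-off would exclude them. The lists hold no reads, so the depth is unknown and the study's read-based test was not run. How Tn5 offsets and duplicates were handled is not given in the sources used here.

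Peaks outside the mitochondrial genome were merged (1 bp overlap; bedtools 2.31.1 gave the same 60710 regions), and a region took its highest score per library. Log2 scores of regions found in all 4 libraries were quantile-normalised and tested with limma 3.58.1 (R 4.3.3; eBayes with a trend, Benjamini-Hochberg adjustment over 25442 regions). Groups do not overlap where both normalised values of one lie beyond both of the other. An exact permutation test of 2 against 2 libraries cannot go below p = 0.3333. Motifs were matched on GRCm38.p6, both strands, and scripts were tested on simulated data. RefSeq promoter sequences matched 6 of the 10 genes. Named for each gene were its start-site regions, its highest region and the one with the largest absolute log2 change among those found in all libraries, its IL-4-only and control-only regions, and regions whose groups do not overlap with an absolute log2 change of at least 0.5. For the other pathway genes, regions past the limma threshold were to be named. As there were none, the 4 largest absolute log2 changes among regions without overlap were taken. Remaining regions were named after their values were seen. The members and lists were chosen with earlier results of these data known. Alternatives were other normalisations, no variance trend, a score of at least 2 or above the median, merging at 500 bp, the replicate block, regions within 50 kb and leaving out each library.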

Additional observations from a re-analysis of the deposited data

How the results depend on the processing

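The lists give no read depth, and a region without a peak has no value, so its level there is unknown. The members called by limma numbered 0 under every alternative run, with a lowest adjusted p of 0.188 with the replicate block, 0.229 with median centring, 0.541 without a variance trend, 0.293 at scores of at least 2, 0.308 with merging at 500 bp and 0.0738 to 0.811 with 1 library left out. Over all regions, the 4 higher calls became 11 with the replicate block, 0 without the trend and 0 to 14 with 1 library left out, and the 2 lower calls became 3 with the block, 0 without the trend and 0 with any library left out. The labels do not say whether the replicate numbers pair the libraries. The deviations of same-numbered libraries had r = 0.0068 across regions, which cannot settle whether they share a mouse or day.

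IL-4-only members numbered 1 among regions above the median score and 2 to 7 with 1 library left out, the 7 being without control replicate 1 or IL-4 replicate 1, where 5.38% and 9.37% of all regions were IL-4-only. Control-only members numbered 3 at scores of at least 2, 3 with merging at 500 bp and 5 to 17 with 1 library left out, the 17 being without control replicate 2, where 13.7% of all regions were control-only. The median change of the members was −0.141 to −0.035 with 1 library left out. Of the 23 regions found in all libraries and named by the rule, 14 kept their sign under all alternatives, and 9 changed it with 1 library left out; the cause was not tested. These ran, from the lowest to the highest value, from −0.510 to 0.091 (the latter without IL-4 replicate 1) for Tgfb1, −0.141 (without control replicate 2; −0.009 without IL-4 replicate 1) to 0.158 for Tgfbr1 37.6 kb upstream, −0.243 to 0.091 (without control replicate 1) at the start of Tgfbr1, −0.338 to 0.045 (without control replicate 1) at that of Smad2, −0.560 to 0.003 (without control replicate 2) for Smad3 26.4 kb downstream, −0.046 (without IL-4 replicate 2) to 0.780 for Smad7 24.4 kb upstream, −0.126 to 0.737 and −0.059 to 0.313 for the start-site regions of Smad7 (both lowest without IL-4 replicate 1), and −0.181 (without IL-4 replicate 1; −0.027 without control replicate 2) to 0.626 at the start of Skil.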
